A study of Mus musculus with 18 samples.

Results

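Transcripts of 9 genes that mark neutrophils were followed across RNA-seq libraries of mouse uterus and ovary: Csf3r, Cxcr2, S100a8, S100a9, Ly6g, Camp, Ngp, Mmp8 and Retnlg. They were chosen by name, each gene ID of the 2 deposited count tables was matched to its mouse symbol, and all 9 were found among the 57010 gene IDs listed. The mice were homozygous (ARE-/-), heterozygous (ARE+/-) or wild type (WT) on the strain given as C57B6/J, were matched for age and were 20 to 25 weeks old. The labels do not spell out ARE; in mice of this name an AU-rich element of the interferon-γ gene is known to be deleted from the germ line, which lengthens the life of the interferon-γ mRNA in all cells that make it. Each of the 3 genotypes gave 3 uterus and 3 ovary libraries, 18 in all, from bulk tissue. No agent was given to any group in the labels, and the stage of the estrous cycle, which is known to change uterine neutrophil number, is not given in the sources used here. The titles mark the first WT uterus library and the ARE-/- ovary library numbered 6 as backup samples, and both were kept.

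Neutrophils are short-lived phagocytes that are made in the bone marrow under the growth factor G-CSF and enter tissues along gradients of CXC chemokines. They carry antimicrobial proteins in granules that are filled during their maturation, so transcripts of many granule proteins are high in marrow precursors and low in mature cells, whereas S100a8, S100a9, Csf3r and Cxcr2 stay high in mature cells. In the mouse uterus neutrophils enter and leave the endometrium with the estrous cycle and after mating.

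The upstream regions of 4 of the genes are shown because the results turn on them: S100a8 and S100a9, which moved together in the uterus, Csf3r, which changed in both tissues, and Retnlg, which followed another pattern. Each runs from 250 bases before to 50 bases after the start of the gene in RefSeq on GRCm38.p6, 5′ to 3′ on the strand of the gene. Capitals mark matches of TATAAA on the strand shown, of the interferon-responsive GAS motif TTCNNNGAA, and of the C/EBP motif TTGCNNAA or its reverse complement TTNNGCAA.
S100a8 (chr3:90668821-90669120, plus strand): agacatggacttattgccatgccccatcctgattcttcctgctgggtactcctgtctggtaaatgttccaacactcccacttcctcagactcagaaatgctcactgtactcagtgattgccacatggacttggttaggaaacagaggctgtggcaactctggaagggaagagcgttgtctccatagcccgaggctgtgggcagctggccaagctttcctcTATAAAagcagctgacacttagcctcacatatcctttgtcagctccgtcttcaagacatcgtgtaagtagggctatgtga
S100a9 (chr3:90695672-90695971, minus strand): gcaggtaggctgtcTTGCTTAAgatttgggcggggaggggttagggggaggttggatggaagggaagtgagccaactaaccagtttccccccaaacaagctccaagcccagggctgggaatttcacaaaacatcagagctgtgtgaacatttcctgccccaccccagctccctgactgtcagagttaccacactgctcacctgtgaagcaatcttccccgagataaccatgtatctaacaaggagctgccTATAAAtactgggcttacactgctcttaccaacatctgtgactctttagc
Csf3r (chr4:126024409-126024708, plus strand): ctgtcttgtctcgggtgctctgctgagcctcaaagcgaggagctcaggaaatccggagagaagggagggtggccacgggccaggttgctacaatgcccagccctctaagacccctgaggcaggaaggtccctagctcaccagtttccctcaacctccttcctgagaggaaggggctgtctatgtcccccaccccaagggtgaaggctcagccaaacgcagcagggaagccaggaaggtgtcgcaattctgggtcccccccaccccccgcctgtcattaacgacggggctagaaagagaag
Retnlg (chr16:48872358-48872657, plus strand): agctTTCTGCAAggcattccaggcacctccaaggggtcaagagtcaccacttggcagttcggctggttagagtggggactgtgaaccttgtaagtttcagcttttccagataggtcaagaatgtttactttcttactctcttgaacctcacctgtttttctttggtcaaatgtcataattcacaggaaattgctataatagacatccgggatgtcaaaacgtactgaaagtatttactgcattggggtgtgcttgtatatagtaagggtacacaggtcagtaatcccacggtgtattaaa
The S100a8 sequence holds TATAAA starting at position -30 from the gene start, and the S100a9 sequence holds it at position 1 and a C/EBP match at position -236. Retnlg has a C/EBP match at position -246, and the Csf3r window has none of the 3 motifs. All 9 genes had at least 1 entry in the table. TATAAA occurs in 8.32%, the GAS motif in 8.30% and the C/EBP motif in 10.8% of the 32851 mouse regions of this length. None of the 9 genes matched the GAS motif. These matches describe letters within the window only.

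In the annotation of the count tables, GENCODE M32, whose coordinates belong to a later build than the sequences above, S100a8 (ENSMUSG00000056054.10) spans chr3:90576285-90577342 on the plus strand and S100a9 (ENSMUSG00000056071.13) spans chr3:90599939-90603028 on the minus strand, so the subunit genes are neighbours on chromosome 3. Csf3r (ENSMUSG00000028859.15) spans chr4:125918343-125938233 and Retnlg (ENSMUSG00000022651.7) spans chr16:48692984-48694859, both on the plus strand. Camp, Ngp and Mmp8 lie on chromosome 9, Ly6g on chromosome 15 and Cxcr2 on chromosome 1. No member shares exon sequence with an overlapping gene in that annotation. Reads that map to several places were also counted, however. Csf3r and Cxcr2 match transcripts of 159 and 115 other genes, so their values can include reads from elsewhere.

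Totals ran between 33185496 and 49720354 counts in uterus libraries and between 38132822 and 46647171 in ovary libraries. Ifng had 96, 130 and 56 counts in ARE-/- uteri, 58, 36 and 70 in ARE+/- uteri and 4, 6 and 0 in WT uteri. In ovaries Ifng had 51, 38 and 50 counts in ARE-/- libraries, 18, 10 and 28 in ARE+/- libraries and 4, 0 and 4 in WT libraries, so the Ifng counts of the genotypes did not overlap with WT in either tissue. Some uterus libraries stood apart. The summed level of 7 red blood cell markers in CPM (counts scaled to the effective library size) was 7476, 1377 and 882 in ARE-/- uteri 1, 2 and 3, against 125 to 235 in ARE+/- uteri and 101 to 232 in WT uteri. The sum of 6 adipocyte markers was 16010, 1651 and 958 CPM in the same ARE-/- uteri, against 279 to 485 CPM in ARE+/- uteri and 39.8 to 55.1 CPM in WT uteri. All ARE-/- uteri were thus above the other groups in both sums, ARE-/- uterus 1 most of all, and that library also had the highest sum of 10 ovary markers among the uteri, 307 CPM. WT uterus 2 had 133.5 CPM over 9 squamous epithelium markers and 628 CPM over 10 estrogen-induced secretory genes, against 6180 to 6941 CPM and 2375 to 2433 CPM in the other WT uteri. The ARE+/- uterus 3 library had 1.16 CPM of S100a9 and 0.462 CPM of Cxcr2, inside the WT ranges of 0.855 to 1.53 and 0.135 to 0.855 CPM, while its Ifng and Csf3r were above WT.

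Csf3r encodes the receptor for G-CSF and is the gene of the set that changed in both tissues. Its level was 38.8, 34.1 and 61.4 CPM in ARE-/- uteri, 69.8, 57.4 and 24.3 CPM in ARE+/- uteri, and 5.14, 8.23 and 5.86 CPM in WT uteri. All 6 uteri of the ARE genotypes were above all 3 WT uteri, and the ARE genotypes overlapped with each other. Csf3r rose by 2.81 ± 0.40 on the log2 scale (SE, n = 3 each, edgeR quasi-likelihood test, adjusted p = 0.0063) in ARE-/- uteri and by 2.98 ± 0.41 (adjusted p = 0.010) in ARE+/- uteri, each against the same WT libraries. The edgeR adjusted p for ARE-/- was 0.052 without WT uterus 3 and that for ARE+/- was 0.090 without WT uterus 1 or WT uterus 3. Within a tissue the edgeR p-values compare 3 libraries with 3, against a spread estimated from all 9 libraries of that tissue, the third genotype included. Contrasts between tissues use all 18 libraries. The p-values thus speak only of the spread among these libraries.

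In the ovary Csf3r measured 17.4, 14.4 and 11.04 CPM in ARE-/- libraries, 16.7, 8.74 and 14.6 CPM in ARE+/- libraries, and 3.38, 4.87 and 3.72 CPM in WT libraries. Again every ARE library was above every WT library. The rise was 1.86 ± 0.27 in ARE-/- ovaries (log2, SE, edgeR adjusted p = 0.0037) and 1.75 ± 0.27 in ARE+/- ovaries (edgeR adjusted p = 0.016). The ARE-/- call held under all 15 other settings tried, with changes of 1.67 to 2.10 on the log2 scale. The ARE+/- call was lost in 5 of 15 other settings, 4 of which leave out a library, namely ARE+/- ovary 1 (edgeR adjusted p = 0.089) or ARE+/- ovary 4 (0.067), WT ovary 1 (0.12) or WT ovary 3 (0.098).

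Levels of Csf3r ordered the 6 groups as ARE+/- uterus (50.5 ± 23.5 CPM, SD, n = 3), ARE-/- uterus (44.7 ± 14.6), ARE-/- ovary (14.3 ± 3.17), ARE+/- ovary (13.3 ± 4.12), WT uterus (6.41 ± 1.62) and WT ovary (3.99 ± 0.783). The pair of ARE uterus groups and the pair of ARE ovary groups overlapped in range, and the other neighbours in this order did not. The ARE-/- effect on Csf3r, ovary minus uterus, was -0.96 ± 0.50 (log2, SE, edgeR adjusted p = 0.40) and did not pass the test.

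Cxcr2 encodes the receptor for CXC chemokines such as Cxcl1, Cxcl2 and Cxcl5. In the uterus it measured 5.88, 6.82 and 7.96 CPM in ARE-/- libraries, 19.5, 10.1 and 0.462 CPM in ARE+/- libraries, and 0.624, 0.135 and 0.855 CPM in WT libraries. The ARE-/- uteri lay in a narrow band above WT, and the ARE+/- group held both the highest library and 1 within the WT range. The fitted change was 3.69 ± 1.08 in ARE-/- (log2, SE, edgeR adjusted p = 0.10) and 4.23 ± 1.11 in ARE+/- (edgeR adjusted p = 0.12), so neither passed. In the ovary Cxcr2 had 4, 4 and 10 counts in ARE-/-, 14, 8 and 0 in ARE+/- and 2, 0 and 4 in WT libraries, too few for the test.

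S100a8 and S100a9 encode the 2 subunits of calprotectin, a calcium- and zinc-binding protein that is among the most abundant in the neutrophil cytosol. In the uterus S100a8 stood at 46.6, 34.3 and 55.4 CPM in ARE-/- libraries, 70.7, 46.1 and 0.664 CPM in ARE+/- libraries, and 1.82, 0.718 and 1.01 CPM in WT libraries. S100a9 stood at 81.5, 65.3 and 92.8 CPM in ARE-/- libraries, 123, 70.2 and 1.16 CPM in ARE+/- libraries, and 1.53, 1.21 and 0.855 CPM in WT libraries. All 3 ARE-/- uteri and 2 of the 3 ARE+/- uteri were therefore far above WT in both subunits, while the ARE+/- uterus 3 library was not.

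S100a9 rose by 6.07 ± 1.28 on the log2 scale in ARE-/- uteri (SE, n = 3 each, edgeR adjusted p = 0.036), a fitted 67.2-fold difference. The call was lost in 9 of 15 other settings while the fitted change stayed at 5.87 to 6.29 on the log2 scale; leaving out WT uterus 1, 2 or 3, ARE+/- uterus 1 or 2, or ARE-/- uterus 1 or 3 gave edgeR adjusted p-values of 0.17, 0.066, 0.19, 0.052, 0.072, 0.088 and 0.090 in that order. S100a8 had a fitted change of 5.29 ± 1.25 in ARE-/- uteri (log2, SE, edgeR adjusted p = 0.053). In ARE+/- uteri the fitted changes were 5.07 ± 1.24 for S100a8 (edgeR adjusted p = 0.099) and 5.76 ± 1.26 for S100a9 (edgeR adjusted p = 0.072).

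Without the ARE+/- uterus 3 library, edgeR called 4 of 9 tested members in ARE-/- uteri against WT, where 2.76% of all genes were called higher, fewer than the 3.36% in the fit of all 9 uteri. It gave 5.28 for S100a8 (log2, adjusted p = 0.00038) and 3.69 for Cxcr2 (adjusted p = 0.014), although that library belongs to neither group of this comparison. For the other 2 ARE+/- uteri against WT the fitted changes were 5.64 for S100a8, 6.34 for S100a9 and 4.79 for Cxcr2. That library was singled out by its low levels of these same genes, so these values and p-values only describe the remaining libraries. No p-value is given for the ARE+/- comparison without that library, where 0.473% of all genes were called higher. Without ARE-/- uterus 1 the members called were 1 in ARE-/- uteri, Csf3r, where 3.86% of genes were called higher, and 2 in ARE+/- uteri, Csf3r and Retnlg, where 2.43% were.

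The ovary had little of either subunit. S100a8 had 10, 30 and 14 counts in ARE-/- ovaries, 24, 12 and 14 in ARE+/- ovaries and 12, 2 and 12 in WT ovaries, and the groups overlapped. S100a9 had 27, 20 and 64 counts in ARE-/- ovaries, 35, 14 and 8 in ARE+/- ovaries and 10, 12 and 16 in WT ovaries, and the ARE-/- libraries were above WT while the ARE+/- libraries overlapped with it. The fitted S100a9 change was 1.52 ± 0.67 in ARE-/- ovaries (log2, SE, edgeR adjusted p = 0.18) and 0.55 ± 0.67 in ARE+/- ovaries (edgeR adjusted p = 0.76).

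Set against the uterus, the ovarian response to ARE-/- differed by -4.55 ± 1.56 for S100a9 (log2, SE, edgeR over 18 libraries, adjusted p = 0.22) and -4.26 ± 1.60 for S100a8 (adjusted p = 0.26), as ovary minus uterus. Neither passed the edgeR test, nor did any other of the 8 genes tested, where 0.169% of all genes tested were called. Without ARE+/- uterus 3, which belongs to none of the groups of this contrast, the edgeR adjusted p was 0.025 for S100a9 and 0.043 for S100a8. That library was singled out by its low levels of these same genes, so these p-values only describe the remaining libraries. With other single libraries left out the edgeR adjusted p reached 0.40 for S100a9 and 0.48 for S100a8. For the ARE+/- effect the S100a9 difference was -5.23 ± 1.61 (edgeR adjusted p = 0.39), and its size without ARE+/- uterus 3 was -5.80. None of the 8 genes tested was called in this contrast, where 0.00375% of all genes were.

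**Figure D1:**
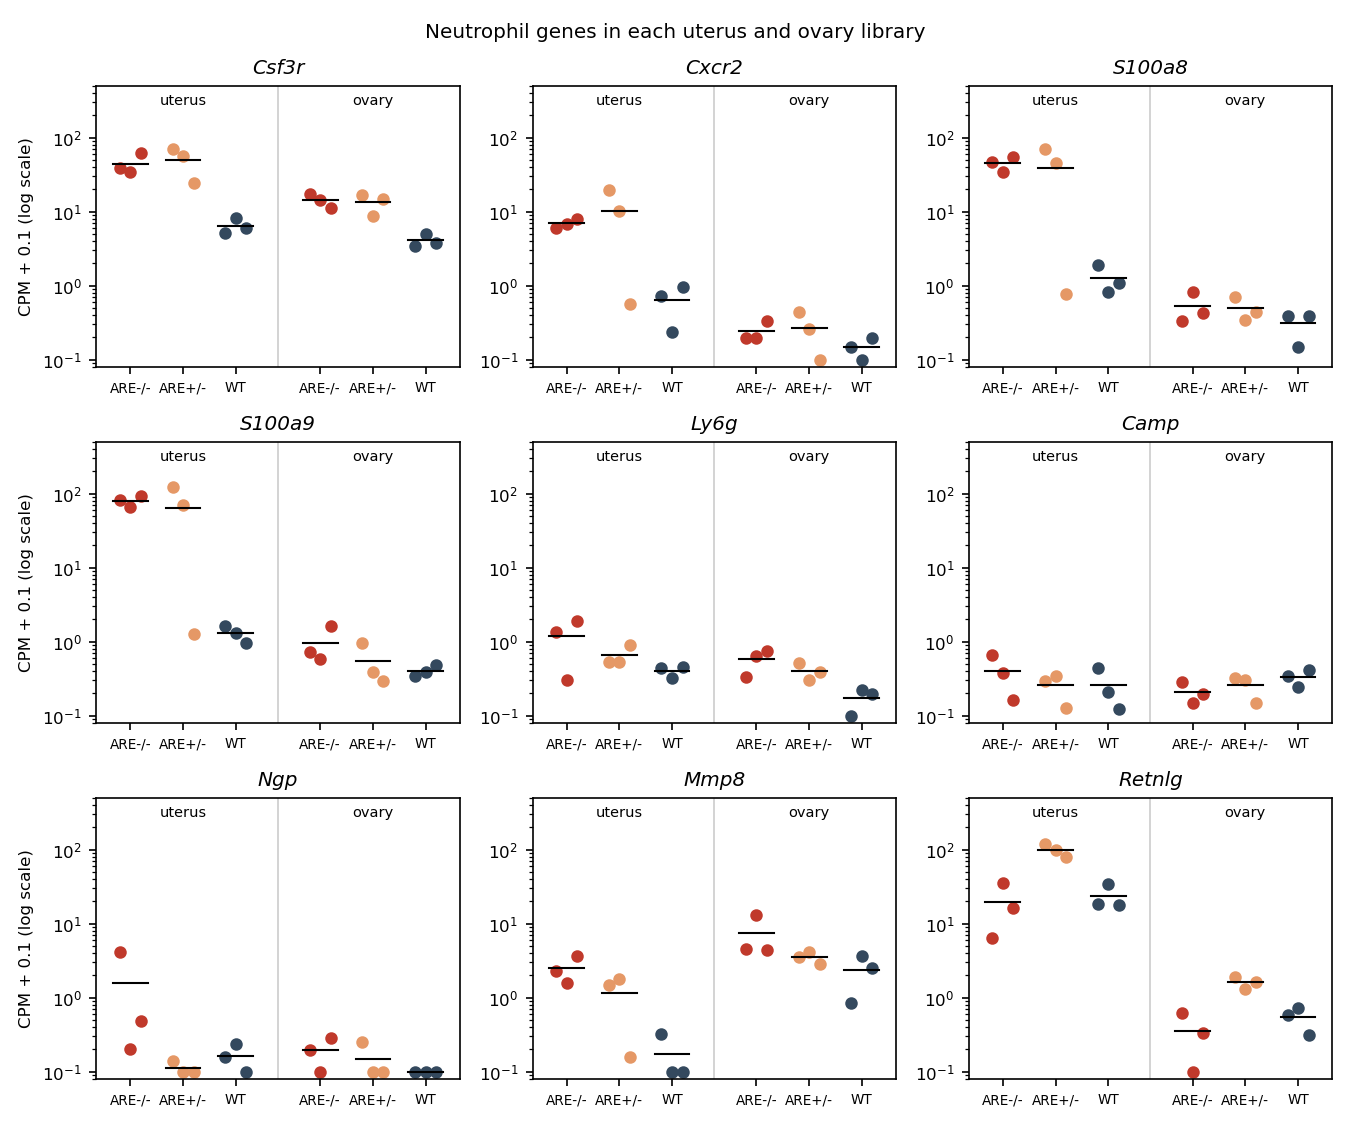
Level of each of the 9 genes in every library, in CPM plus 0.1 on a log axis, with uterus on the left and ovary on the right of each panel. Points are libraries and bars are the means of 3. S100a8, S100a9 and Cxcr2 are high in all 3 ARE-/- uteri and in 2 of the 3 ARE+/- uteri, and low in all 9 ovaries.

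Per kilobase of exon, the scale on which different genes can be compared, the ratio of S100a9 to S100a8 was 1.63, 1.77 and 1.56 in ARE-/- uteri, 1.63, 1.42 and 1.62 in ARE+/- uteri and 0.786, 1.57 and 0.791 in WT uteri. The ratio was therefore alike in the uteri that held 34.3 to 70.7 CPM of S100a8. The summed level of the 9 genes per kilobase was 282, 269 and 343 CPM per kb in ARE-/- uteri, 611, 419 and 148 in ARE+/- uteri and 40.3, 65.2 and 36.6 in WT uteri. Retnlg, which followed another pattern, made up 76.9% to 89.8% of this sum in WT uteri and 92.2% in ARE+/- uterus 3. In ovaries the sum was 9.96 to 12.6 CPM per kb in ARE-/- libraries, 7.86 to 13.1 in ARE+/- libraries and 3.50 to 4.91 in WT libraries. In bulk tissue a larger number of cells of a type and more RNA in each such cell cannot be told apart.

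Ly6g encodes the surface protein that antibodies use to recognize mouse neutrophils, and it was scarce. It had 44, 8 and 57 counts in ARE-/- uteri, 22, 16 and 28 in ARE+/- uteri, and 12, 10 and 14 in WT uteri. The ARE-/- uteri overlapped with WT and the ARE+/- uteri did not. Fitted changes were 1.83 ± 0.75 in ARE-/- (log2, SE, edgeR adjusted p = 0.21) and 0.87 ± 0.75 in ARE+/- (edgeR adjusted p = 0.67). In ovaries the counts were 10, 23 and 28 in ARE-/-, 17, 10 and 12 in ARE+/- and 0, 5 and 4 in WT libraries, with no overlap with WT. The ovarian changes of 2.70 ± 0.88 in ARE-/- (edgeR adjusted p = 0.080) and 2.03 ± 0.88 in ARE+/- (edgeR adjusted p = 0.30) did not pass.

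Camp encodes the antimicrobial cathelicidin and Ngp the neutrophilic granule protein, both of which are transcribed mainly while granules are being filled. Camp had 20, 11 and 2 counts in ARE-/- uteri, 10, 9 and 1 in ARE+/- uteri and 12, 5 and 1 in WT uteri, and its fitted change in ARE-/- was 0.97 ± 1.12 (log2, SE, edgeR adjusted p = 0.68). Ngp had 140, 4 and 12 counts in ARE-/- uteri, 2, 0 and 0 in ARE+/- uteri and 2, 6 and 0 in WT uteri, so 1 library, ARE-/- uterus 1, held most of its reads. That library is the one with the highest red blood cell and adipocyte sums; the part of such cells in its Ngp was not tested, and Ngp did not pass the filter on low counts. In ovaries Camp had between 2 and 13 counts in every library, and Ngp had 4, 0 and 8 counts in ARE-/-, 6, 0 and 0 in ARE+/- and none in WT libraries.

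Mmp8 encodes neutrophil collagenase, a granule protease that cuts fibrillar collagen. In uteri it measured 2.17, 1.49 and 3.59 CPM in ARE-/- libraries, 1.39, 1.72 and 0.0578 CPM in ARE+/- libraries and 0.227, 0 and 0 CPM in WT libraries. The ARE-/- uteri were above WT, and the ARE+/- uterus 3 library was again within the WT range. The fitted change of 5.04 ± 1.40 in ARE-/- (log2, SE, edgeR adjusted p = 0.084) rests on 8 counts in 1 WT library, and without that library, WT uterus 1, it was 9.56, a value set by the prior count since the other WT uteri are at 0. In ovaries Mmp8 measured 4.48, 13.02 and 4.34 CPM in ARE-/- libraries, 3.48, 4.11 and 2.74 CPM in ARE+/- libraries and 0.754, 3.55 and 2.45 CPM in WT libraries. The ovarian ARE-/- libraries were above all WT libraries, with a fitted change of 1.71 ± 0.59 that did not pass (log2, SE, edgeR adjusted p = 0.10).

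**Figure D2:**
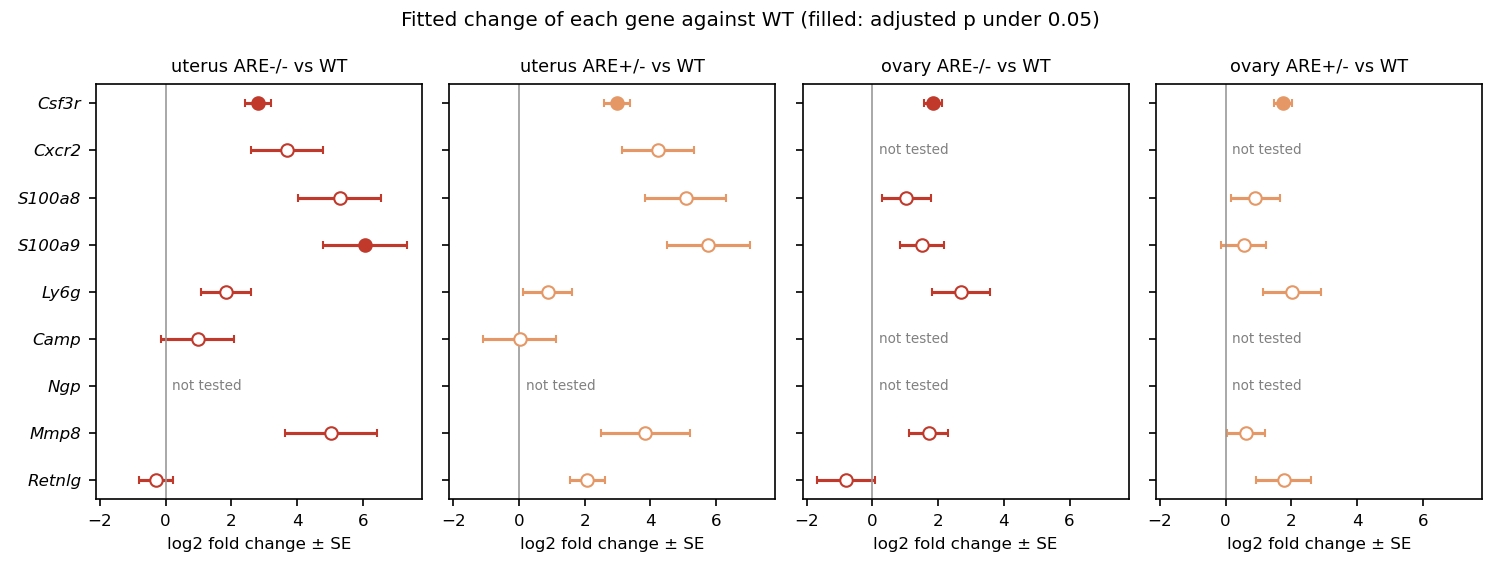
Fitted log2 fold change against WT with its standard error for each gene, in ARE-/- and ARE+/- uteri and ovaries. Filled points have an edgeR adjusted p under 0.05. Csf3r is filled in all 4 panels and S100a9 in ARE-/- uteri only; the other members are open or were not tested.

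Retnlg encodes resistin-like gamma, a secreted cysteine-rich protein made in mouse marrow and neutrophils. In the uterus it measured 6.34, 35.5 and 16.0 CPM in ARE-/- libraries, 119, 99.7 and 80.8 CPM in ARE+/- libraries and 18.4, 34.7 and 18.1 CPM in WT libraries. The ARE+/- uteri, library 3 included, were above all others, while the ARE-/- uteri overlapped with WT. The fitted change was -0.30 ± 0.51 in ARE-/- (log2, SE, edgeR adjusted p = 0.80) and 2.08 ± 0.53 in ARE+/- (edgeR adjusted p = 0.11), and ARE-/- against ARE+/- gave -2.38 ± 0.54 (edgeR adjusted p = 0.47). In ovaries the levels were 0.519, 0 and 0.236 CPM in ARE-/- libraries, 1.81, 1.23 and 1.52 CPM in ARE+/- libraries and 0.486, 0.636 and 0.216 CPM in WT libraries. The ARE+/- ovaries were thus also above the others, with a fitted ARE-/- against ARE+/- difference of -2.56 ± 0.87 (log2, SE, edgeR adjusted p = 0.53).

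Of the 9 genes, Retnlg made up 3.79% to 22.3% of the summed level per kilobase in ARE-/- uteri, 32.96% to 92.2% in ARE+/- uteri and 76.9% to 89.8% in WT uteri. Over the 9 uterus libraries its correlation with S100a8 was 0.05 (Pearson's r of log2(CPM + 1)). The 3 genes most like Retnlg by this measure were Ccr3 (0.979), Gapt (0.970) and Rab44 (0.969); Ccr3 encodes the eotaxin receptor of eosinophils. These libraries share genotype and tissue, so the values only describe likeness.

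The sum of eosinophil markers was highest in the same uteri as Retnlg. Most of it in ARE+/- uteri came from Ccr3, already named as most like Retnlg, so the sum is no separate result. The summed level of 7 such markers was 7.36, 21.7 and 9.91 CPM in ARE-/- uteri, 36.8, 32.2 and 35.2 CPM in ARE+/- uteri and 13.4, 18.6 and 12.4 CPM in WT uteri. Ccr3 measured 1.66, 10.9 and 5.10 CPM in ARE-/- uteri, 23.1, 18.6 and 20.3 CPM in ARE+/- uteri and 6.47, 11.9 and 6.94 CPM in WT uteri. Siglecf, an eosinophil lectin, was the only 1 of 5 tested markers called in ARE+/- uteri, at 7.32 ± 0.342 CPM in ARE+/- and 1.97 ± 0.402 CPM in WT (SD, n = 3 each), a change of 1.90 ± 0.37 (log2, SE, edgeR adjusted p = 0.047). In ARE-/- uteri 1 of the 5, the granule gene Prg2, was called higher, and the granule gene Epx was at 0 in all 3. Of all genes 1.08% were called higher in ARE+/- and 3.36% in ARE-/- uteri. Without ARE+/- uterus 3, 0 of 5 were called by edgeR in either comparison, so neither the Siglecf nor the Prg2 call held. The part of eosinophils in the Retnlg level was not tested.

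**Figure D3:**
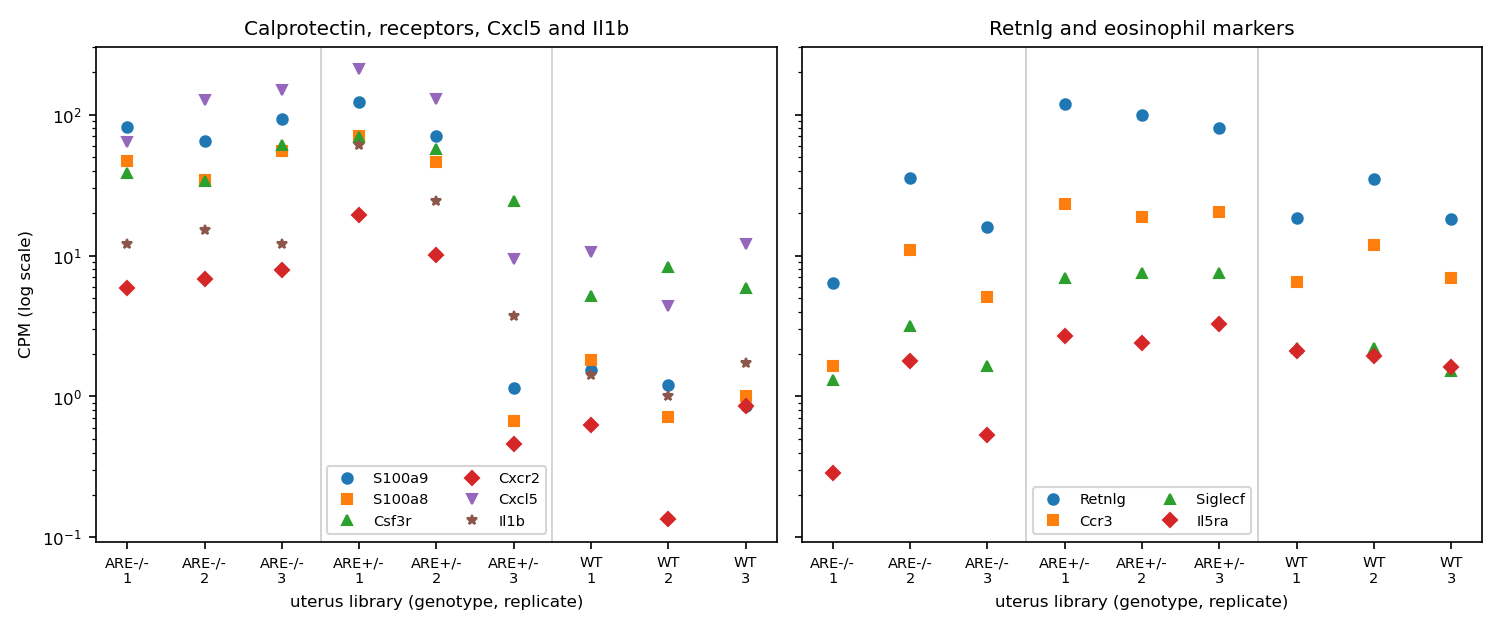
CPM in each uterus library on a log axis. The left panel has S100a9, S100a8, Csf3r, Cxcr2, Cxcl5 and Il1b, of which S100a9, S100a8, Cxcr2 and Cxcl5 are at WT-like levels in ARE+/- uterus 3. The right panel has Retnlg with Ccr3, Siglecf and Il5ra of the list of 7 eosinophil markers, which are high in all 3 ARE+/- uteri. Prg2 of that list, called higher in ARE-/- uteri only, is not shown.

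The counts of members called stand beside the background as follows. In ARE-/- uteri 2 of 8 tested genes were called higher, where 3.36% of all 24277 genes tested were, and 5 had all 3 libraries above WT, where 12.4% of all genes did. In ARE+/- uteri 1 of 8 was called higher, where 1.08% of all genes were, and 3 had all libraries above WT, where 15.5% did. In ARE-/- ovaries 1 of 6 was called higher, where 6.31% of 24457 genes were, and 4 lay wholly above WT, where 15.3% did. In ARE+/- ovaries 1 of 6 was called higher, where 1.35% were, and 3 lay wholly above WT, where 14.4% did. No member was called lower against WT, where 0.391% and 0.0535% of genes were in ARE-/- and ARE+/- uteri and 4.15% and 0.356% in ARE-/- and ARE+/- ovaries. The filter keeps a gene that has enough counts in any 3 libraries, so a scarce gene enters through the group in which it is high, and the untested genes (Ngp in the uterus; Camp, Ngp and Cxcr2 in the ovary) stay outside these counts.

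ARE-/- against ARE+/- gave no call among the members by edgeR, where 0.0% of genes were called in the uterus and 0.0491% in the ovary. In each tissue 1 member, Retnlg, had an unadjusted p under 0.05; the DESeq2 Wald test called 1 member in the uterus, Retnlg (-2.37, adjusted p = 0.0018), and none in the ovary. Retnlg lay wholly below ARE+/- in both tissues, where 4.25% of uterine and 7.26% of ovarian genes did, and Mmp8 lay wholly above it in the ovary, where 5.77% did.

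Between WT ovary and WT uterus 2 of 8 tested members were called, 1 in each direction. Retnlg was lower in WT ovary by a log2 difference of -5.73 ± 0.74 (SE, n = 3 each, edgeR adjusted p = 7e-05). Mmp8 was higher in WT ovary by 4.95 ± 1.17 (log2, SE, edgeR adjusted p = 0.0058), with all 3 ovaries above all 3 uteri, where 24.2% of genes did. Both calls held under all other settings tried. The size of the Mmp8 difference rests on 8 counts in WT uterus 1, as the other WT uteri were at 0. That size ran from 4.32 to 9.52 with single libraries left out. Over all 26682 genes 13.3% were called higher and 11.9% lower in ovary, so the count of members called was near the share of all genes. Besides Retnlg, the members Csf3r, S100a8, S100a9, Ly6g and Cxcr2 also had all WT ovaries below all WT uteri, which 21.6% of genes did, without passing the test. Mmp8 was the member whose highest group mean was ovarian, at 7.28 ± 4.97 CPM in ARE-/- ovaries.

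**Figure D4:**
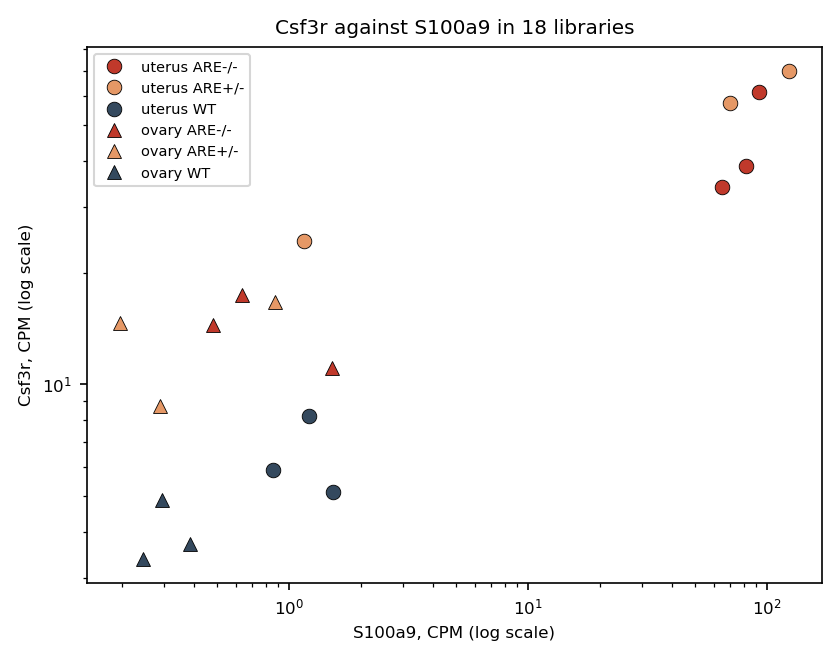
Csf3r against S100a9 in CPM on log axes; circles are uterus and triangles ovary libraries, coloured by genotype. The ARE ovaries and ARE+/- uterus 3 have 8.74 to 24.3 CPM of Csf3r with at most 1.51 CPM of S100a9, apart from the 5 other ARE uteri, which have at least 65.3 CPM of S100a9.

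Within the uterus the levels of Csf3r, S100a8, S100a9, Cxcr2 and Mmp8 went together, with pairwise correlations of 0.84 to 0.997 over 9 libraries (Pearson's r of log2(CPM + 1), libraries sharing genotype). S100a8 and S100a9 were most like each other (0.997), followed by the chemokine gene Cxcl5 for both (0.972 with S100a8 and 0.966 with S100a9). Cxcr2 was most like Cxcl5 (0.984) and Il1b (0.971). Csf3r was most like Clec7a (0.987), the β-glucan receptor Dectin-1 of myeloid cells, and in the ovary it was most like Themis2 (0.997) and Ptpn6 (0.996), which encode signalling proteins of haematopoietic cells. In ovaries S100a8 and S100a9 had a correlation of 0.29 at their low counts, and Csf3r had one of 0.53 with S100a8. Ovarian Mmp8 was most like Adam22 (0.963), Bcat2 (0.960) and Enpp5 (0.960). Its correlations with the other members ran from -0.58 for Camp to 0.72 for Ly6g, with 0.30 for S100a9 and 0.61 for Csf3r. The cell source of ovarian Mmp8 was not tested.

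Genes of neutrophil recruitment were counted from a list of chemokines and growth factors. Of 12 tested, 2 were called higher in ARE-/- uteri, Tnf and Cxcl1, and 2 in ARE+/- uteri, Il1b and Cxcl1, with median changes of 2.67 and 2.82 on the log2 scale beside 0.04 and 0.01 over all genes. Of all genes 3.36% and 1.08% were called higher in these uteri. Cxcl5, an epithelial attractant of neutrophils, measured 64.3, 127 and 150 CPM in ARE-/- uteri, 209, 130 and 9.47 CPM in ARE+/- uteri and 10.6, 4.42 and 12 CPM in WT uteri. Its change of 3.67 ± 0.93 in ARE-/- (log2, SE, edgeR adjusted p = 0.066) did not pass. The Il1b gene of interleukin-1β measured 12.2, 15.2 and 12.1 CPM in ARE-/- uteri, 61.3, 24.4 and 3.70 CPM in ARE+/- uteri and 1.42, 1.01 and 1.74 CPM in WT uteri, and rose in ARE+/- by 4.43 ± 0.83 (log2, SE, edgeR adjusted p = 0.042), a call that was lost without ARE-/- uterus 1. The ARE+/- uterus 3 library was thus the lowest of its group for both genes. Csf3, which encodes G-CSF itself, measured 3.31 to 5.28 CPM in ARE-/- uteri, 4.30 to 5.46 CPM in ARE+/- uteri and 3.35 to 4.46 CPM in WT uteri, ranges that overlap. In ovaries Csf3 measured 5.59 to 7.48 CPM in ARE-/-, 5.77 to 6.06 CPM in ARE+/- and 4.01 to 5.52 CPM in WT libraries. Both ARE groups lay wholly above WT, as did 15.3% of genes in ARE-/- and 14.4% in ARE+/- ovaries, and Csf3 was not called.

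In ovaries 3 of 12 tested genes of this list were called higher in ARE-/-, namely Tnf, Cxcl15 and Il1b, and 1, Tnf, in ARE+/-, with median changes of 0.50 and 0.61 on the log2 scale. Of all genes 6.31% and 1.35% were called higher in these ovaries. Tnf averaged 2.12 ± 1.13 CPM in ARE-/- ovaries and 0.355 ± 0.145 CPM in WT ovaries (SD, n = 3 each), a rise of 2.59 ± 0.59 (log2, SE, edgeR adjusted p = 0.024). Cxcl5 stayed at or below 0.745 CPM in all 9 ovaries, against a lowest value of 4.42 CPM among the 9 uteri.

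Other neutrophil surface receptors were called higher in 9 of 18 tested genes in ARE-/- uteri, 5 of 18 in ARE+/- uteri, 8 of 15 in ARE-/- ovaries and 3 of 15 in ARE+/- ovaries, and none was called lower. The shares of all genes called higher were 3.36%, 1.08%, 6.31% and 1.35% in that order. Fcgr4, an activating IgG receptor of neutrophils and macrophages, measured 53.2, 37.4 and 53.2 CPM in ARE-/- uteri, 19.1, 16.8 and 42.2 CPM in ARE+/- uteri and 2.21, 3.41 and 1.76 CPM in WT uteri. It rose by 4.29 ± 0.43 in ARE-/- (log2, SE, edgeR adjusted p = 0.0009) and by 3.41 ± 0.41 in ARE+/- uteri (edgeR adjusted p = 0.0074). Fpr2, a formyl peptide receptor, rose by 4.30 ± 0.80 in ARE-/- ovaries (log2, SE, edgeR adjusted p = 0.014) and by 4.63 ± 0.81 in ARE+/- ovaries (edgeR adjusted p = 0.037). These receptors are shared with monocytes and macrophages.

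Of the other granule proteins, 3 of 12 tested genes were called higher in ARE-/- uteri (Lyz2, Slpi and Mmp9), 1 of 12 in ARE+/- uteri (Mmp9), 4 of 11 in ARE-/- ovaries (Pglyrp1, Chil3, Ltf and Slpi) and 1 of 11 in ARE+/- ovaries (Pglyrp1). Lyz2 is also in the list of monocyte and macrophage markers below and is counted again among the calls there. The shares of all genes called higher were 3.36%, 1.08%, 6.31% and 1.35% in that order. Mmp9, gelatinase B, averaged 37.1 ± 7.86 CPM in ARE-/- uteri, 46.3 ± 5.05 CPM in ARE+/- uteri and 15.5 ± 6.74 CPM in WT uteri (SD, n = 3 each). It rose by 1.27 ± 0.30 in ARE-/- (log2, SE, edgeR adjusted p = 0.047) and by 1.58 ± 0.30 in ARE+/- uteri (edgeR adjusted p = 0.041). Both calls were lost without ARE+/- uterus 3, and the ARE-/- call also without ARE-/- uterus 1. The azurophil granule genes Elane and Ctsg were near 0 in most libraries, with at most 1.31 CPM of Elane, in ARE-/- uterus 1. Several of the list, among them Ltf, Lcn2 and Slpi, are also made by estrogen-stimulated epithelium: Ltf measured 1745, 1170 and 4573 CPM in ARE-/- uteri, 1858, 1925 and 3474 CPM in ARE+/- uteri and 549, 89.0 and 534 CPM in WT uteri.

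Transcripts of mature neutrophils were called higher in 2 of 11 tested genes in ARE-/- uteri, Wfdc21 and G0s2, in 0 of 11 in ARE+/- uteri, in 1 of 9 in ARE-/- ovaries, Mcemp1, and in 0 of 9 in ARE+/- ovaries. For these and the transcription factors below, the shares of all genes called higher were 3.36%, 1.08%, 6.31% and 1.35% in that order. The stefin A genes Stfa1, Stfa2, Stfa3 and Stfa2l1 were at 0 in all 9 ovaries. Stfa2l1 measured 2.06, 0.872 and 1.95 CPM in ARE-/- uteri, 1.69, 1.67 and 0 CPM in ARE+/- uteri and 0, 0 and 0.0503 CPM in WT uteri, so the ARE+/- uterus 3 library again sat with WT. Of 8 granulocyte transcription factors, Spi1 and Cebpa were called higher in ARE-/- uteri and Spi1 in ARE+/- uteri, and Spi1 and Cebpd in ARE-/- ovaries. Spi1, which encodes PU.1 of myeloid and B cells, measured 41.6 ± 6.94 CPM in ARE-/- uteri, 36.2 ± 5.90 CPM in ARE+/- uteri and 13.1 ± 2.78 CPM in WT uteri (SD, n = 3 each).

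Some markers of other white cells were called higher in the same comparisons, though not in every list. Of all genes, 3.36% were called higher in ARE-/- uteri, 1.08% in ARE+/- uteri, 6.31% in ARE-/- ovaries and 1.35% in ARE+/- ovaries. Monocyte and macrophage markers were called higher in 7 of 12 genes in ARE-/- uteri, 0 of 12 in ARE+/- uteri, 10 of 12 in ARE-/- ovaries and 6 of 12 in ARE+/- ovaries. Their summed level was 1359 to 2357 CPM in ARE-/- uteri, 1085 to 1382 CPM in ARE+/- uteri and 576 to 648 CPM in WT uteri; in ovaries it was 595 to 1121 CPM in ARE-/-, 597 to 712 CPM in ARE+/- and 361 to 469 CPM in WT libraries. None of the 12 markers was at 0 in any group. Without ARE-/- uterus 1, 5 of 12 were called in ARE+/- uteri and 8 of 12 in ARE-/- uteri. T cell markers were called higher in 8 of 8 genes in ARE-/- uteri, 4 of 8 in ARE+/- uteri, 8 of 8 in ARE-/- ovaries and 3 of 8 in ARE+/- ovaries. The part of macrophages, which also express Csf3r and several of the receptors above at some level, in these results was not tested.

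The counts of these lists depended on single uterus libraries. Leaving out ARE-/- uterus 1 gave 9 of 19 receptors, 2 of 12 granule proteins, 2 of 15 recruitment genes, 2 of 8 transcription factors and 0 of 11 mature transcripts called higher in ARE-/- uteri, and 9, 3, 2, 3 and 0 of the same lists in ARE+/- uteri. Leaving out ARE+/- uterus 3 gave 10 of 19 receptors, 2 of 12 granule proteins, 5 of 15 recruitment genes (Cxcl1, Cxcl3, Cxcl5, Il1b and Tnf), 2 of 8 transcription factors and 2 of 11 mature transcripts in ARE-/- uteri, and 3, 0, 2, 0 and 1 in ARE+/- uteri. The shares of all genes called higher in these fits were 3.86% and 2.43% without ARE-/- uterus 1, and 2.76% and 0.473% without ARE+/- uterus 3, for ARE-/- and ARE+/- in that order. The ARE+/- uterus 3 library was singled out by its low levels of S100a8, S100a9 and Cxcr2. Cxcl5, Cxcl3 and Il1b are among the genes most like these. The list counts without that library therefore only describe the remaining libraries.

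The authors' deposited table of a likelihood-ratio test over the genotypes gave adjusted p-values in the uterus of 2.9e-09 for Csf3r, 0.0025 for S100a9, 0.013 for S100a8, 0.047 for Cxcr2, 0.015 for Mmp8, 0.0015 for Ngp, 5.5e-05 for Retnlg, 0.32 for Ly6g and 0.90 for Camp. The authors' deposited table for the ovary gave 8.4e-09 for Csf3r, 0.031 for Retnlg, 0.032 for Mmp8, 0.074 for Ly6g, 0.31 for S100a9 and 0.70 for S100a8, and none for Camp, Ngp and Cxcr2. That test asks for any genotype difference, and 7.55% of 26674 uterine and 12.1% of 24347 ovarian genes in the authors' deposited tables had an adjusted p under 0.05. The authors' deposited tables placed Csf3r in cluster 1 in both tissues and Retnlg in cluster 4 in the uterus.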

How the data were processed

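Bulk RNA of 9 uteri and 9 ovaries was sequenced with paired ends. Per the file headers, the authors counted reads per gene with featureCounts 2.0.4 on GENCODE M32, and deposited 1 table of raw counts per tissue. The options in the headers count multi-mapping reads and reads over several genes for each, count mates singly and set no strand. The submitters' processing notes name STAR and mm10, an earlier build than that of the annotation. The authors also deposited p-values of a likelihood-ratio test, which the processing notes tie to DESeq2, and a cluster number, kept as a score; both were only copied.

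Groups came from the labels, which do not say which uterus and ovary share a mouse or whether replicates are separate extractions. Symbols were found for 52029 of 57010 IDs (91.3%). edgeR 4.0.16 (R 4.3.3) was applied to the counts with filterByExpr, TMM scaling and its robust quasi-likelihood F-test, on the 9 libraries of a tissue, or on all 18 for contrasts between tissues. Benjamini-Hochberg adjustment ran over every gene tested, and calls needed an adjusted p under 0.05. SE is the size of the log2 fold change over the root of F. CPM levels use TMM over 18 libraries, divided by exon length where genes are compared. The test was checked on simulated counts that held no outlying library, so that check does not cover libraries that stand apart.

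Named genes were taken from all members, Ifng, the called genes of each list (up to 4 per contrast) with its 2 highest, and the 3 genes most like each member with a mean of at least 1 CPM. Not every gene under that rule is printed. Epx, Elane, Ctsg, Stfa1, Stfa2 and Stfa2l1 fall outside that rule and were chosen after their values were seen. The members and the 18 other lists were chosen with earlier results of these data known. Alternatives were RLE size factors, no filter or a mean of 1 CPM, a replicate block, only the groups compared, each library left out, and DESeq2 1.42.0. List counts without ARE-/- uterus 1 or ARE+/- uterus 3 were chosen after seeing the data.

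By BLAST 2.17.0 against GENCODE M21 transcripts, 7 of the 9 genes had no match of at least 75 bases at 95% identity in another gene. Csf3r matched transcripts of 159 genes (median 120 bases, 52.9% of its transcript) and Cxcr2 those of 115 (7.03%), so their counts are less certain. A pseudogene matching Csf3r had at most 4 counts in any library.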

Additional observations from a re-analysis of the deposited data

How the results depend on the processing

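Results for single genes kept their direction and side of the threshold in 1092 of the recomputed values, passed newly in 41, no longer passed in 17 and turned sign in 21. RLE scaling turned no direction, changed no member's call and moved no count by over 1.5 times. In ARE-/- uteri against WT, 911 genes were called, 374 with only the compared groups and 2407 by DESeq2; the members called were 2, and 1 without a filter, 1 with the replicate block, 4 with only the compared groups and 5 by DESeq2. In ARE+/- uteri 276 genes were called, 415 without a filter, 922 with only the compared groups and 1363 by DESeq2; members called were 1, 2 with only the compared groups and 6 by DESeq2, and Camp, at 0.017, was -0.000868 without a filter and -0.00749 by DESeq2. ARE-/- against ARE+/- uteri gave 0 genes, 1 without a filter and 186 by DESeq2, with 1 member. In ARE-/- ovaries 2558 genes were called, 1544 with the replicate block and 4139 by DESeq2, which called 3 members in place of 1. In ARE+/- ovaries 417 genes were called, 59 with the replicate block, 701 with only the compared groups and 1500 by DESeq2; the block called 0 members, with 1.54 for Csf3r (adjusted p = 0.24). ARE-/- against ARE+/- ovaries gave 12 genes, 38 without a filter, 199 by DESeq2 and 0 with a mean of at least 1 CPM, the replicate block or only the compared groups; Ly6g turned to -0.388 with the block.

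The tissue difference of the ARE-/- effect called 45 genes, 520 with the replicate block, 5 with only the compared groups and 824 by DESeq2, with 0, 2, 1 and 1 members in that order. That of ARE+/- called 1 gene, 3 without a filter, 5 with the block, 46 with only the compared groups and 197 by DESeq2, with 1 member by the block and 1 by DESeq2. WT ovary against WT uterus called 2 members, 5 with the block and 4 with only the compared groups. The cause of these shifts was not tested.

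With 1 library left out, genes called ranged over 192 to 1322 in ARE-/- uteri, 0 to 733 in ARE+/- uteri, 0 to 1 between the ARE uteri, 785 to 3262 in ARE-/- ovaries, 75 to 727 in ARE+/- ovaries, 0 to 14 between the ARE ovaries, and 3 to 377 and 0 to 81 for the tissue differences of ARE-/- and ARE+/-. Members called ranged over 0 to 4 in ARE-/- uteri, 0 to 4 in ARE+/- uteri, 0 to 1 in ARE+/- ovaries, 0 to 2 and 0 to 1 for the tissue differences, and 2 to 5 between WT tissues. Signs turned for Retnlg in ARE-/- uteri (-1.08 to 0.116), Camp in ARE+/- uteri (-0.493 to 1.15), and between ARE uteri for Csf3r (-0.504 to 0.133), S100a8 (-0.358 to 0.962), S100a9 (-0.274 to 1.16) and Cxcr2 (-1.10 to 0.383). They also turned for S100a9 in ARE+/- ovaries (-0.358 to 0.882), between ARE ovaries for Csf3r (-0.124 to 0.317) and S100a8 (-0.459 to 0.567), and for Retnlg in the tissue differences (-1.58 to 0.279 and -0.694 to 0.0303).

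The lowest uterine counts came without WT uterus 3 (192 in ARE-/- and 0 in ARE+/-) and WT uterus 1 (203 and 4). Same-numbered libraries did not deviate together throughout: correlations of deviations were -0.035 to 0.343 in the uterus (5 of 9 pairs over 0.1), -0.160 to 0.0137 in the ovary (0 of 5) and 0.0231 to 0.132 across tissues (1 of 7), so the numbers were not read as pairing. Camp had at most 20 counts in any library and ovarian Cxcr2 at most 14, so differences in them were hardly detectable at this depth. Mates were counted singly, so a fragment can be counted through both mates, and low counts overstate the number of fragments. Among genes with 1 to 20 counts, 68.1% to 76.4% had an even count, depending on the library.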

Other observations

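Lists for other cell types and tissues, tested in the same fits, gave the following counts, with no gene called lower in any of them against WT. For all counts of this section, the shares of all genes called higher are the background. These were 3.36% in ARE-/- uteri, 1.08% in ARE+/- uteri, 6.31% in ARE-/- ovaries and 1.35% in ARE+/- ovaries. Adipocyte markers were called higher in 6 of 6 genes in ARE-/- uteri and 0 of 6 in ARE+/- uteri, and in 0 of 6 in the ovaries of either genotype. Without ARE-/- uterus 1 the counts were 5 of 6 in ARE-/- uteri and 5 of 6 in ARE+/- uteri, whose sums lay above WT in every library (279 to 485 CPM in ARE+/-, against 39.8 to 55.1 CPM in WT). Red blood cell markers were called higher in 5 of 6 genes in ARE-/- uteri, 0 of 6 in ARE+/- uteri and 0 of 5 in both ovary comparisons, with 4 of 6 in ARE-/- uteri without ARE-/- uterus 1. B cell markers gave 0 of 5 in each comparison except 1 of 5, Cd79b, in ARE-/- ovaries. Platelet markers gave 0 of 4 in uteri and 0 of 5 in ovaries, and mast cell and basophil markers 0 of 6 in uteri and 0 of 5 in ovaries. Eosinophil markers in ovaries gave 2 of 5 in ARE-/-, Ccr3 and Ear2, and 0 of 5 in ARE+/-.

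Of 10 estrogen-induced epithelial secretory genes, 1 was called higher in ARE-/- uteri (Slpi), 1 in ARE+/- uteri (Gabrp), 4 in ARE-/- ovaries (Ltf, Gabrp, C3 and Slpi) and 0 in ARE+/- ovaries; without ARE-/- uterus 1 it was 2 in each uterus comparison, and without ARE+/- uterus 3 it was 2 in ARE-/- and 0 in ARE+/- uteri. Epithelial markers gave 0 of 6 in both uterus comparisons, 3 of 6 in ARE-/- ovaries (Krt19, Krt18 and Krt8) and 2 of 6 in ARE+/- ovaries (Krt19 and Krt18). Squamous epithelium markers gave 0 of 9 in uteri, 1 of 6 in ARE-/- ovaries (Krt13) and 0 of 6 in ARE+/- ovaries; their summed level in uteri was 1993 to 9461 CPM in ARE-/-, 2380 to 3270 CPM in ARE+/- and 133.5 to 6941 CPM in WT libraries. Uterus markers gave 1 of 8 in ARE-/- ovaries (Hand2) and 0 of 8 elsewhere, and ovary markers gave 0 of 8 in uteri and 0 of 10 in ovaries.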
